A study of Mus musculus with 16 samples.

Results

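The middle step of tenogenic induction, from T3 to T6, was followed in *ScxGFP* iPSC-derived cells. The cells came from 1 clone of a mouse induced pluripotent stem cell line with a GFP transgene driven by regulatory sequences of *Scx* (Scleraxis), the early marker of tendon progenitors. All groups were first led to mesoderm with CHIR99021, a Wnt agonist, and cyclopamine, a Hedgehog inhibitor, and both were then withdrawn. T3 and T6 cells then received recombinant TGF-β2 for 3 and 6 days. T0 cells, sorted before TGF-β2, and T9 cells, after 9 days, entered the same model and are cited only for context. Live single cells were sorted into 384-well plates without selection for GFP, and unique molecular identifiers (UMIs), which count each captured mRNA molecule once, were summed over the cells of a plate. The comparison rests on the 3 plates of T3 against the 3 plates of T6, 6 of the 16 samples of the series, and on 2300 of the 4594 cells that held at least 200 detected genes. Nothing in the labels says that the plates came from separate cultures, so the p-values measure the spread between plates, which may be technical.

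Tendon cells arise from *Scx*-positive progenitors. TGF-β signaling, relayed by Smad2 and Smad3, recruits these progenitors and maintains *Scx*. Maturing tenocytes then express *Tnmd* (Tenomodulin, a membrane glycoprotein of mature tendon) and lay down type I collagen, whose fibrils are shaped by small leucine-rich proteoglycans. Retinoic acid, made from retinal by the ALDH1A enzymes and cleared by CYP26 enzymes, acts through nuclear receptors that bind DNA directly.

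The 6 plates held between 1921125 and 4204037 UMIs. They were of unequal quality. Plates 1 and 3 of T3 and plate 2 of T6 had 21.6% to 27.9% of their UMIs on the mitochondrial genome and a median of 1212.5 to 2228 genes per cell. Plate 2 of T3 and plates 1 and 3 of T6 had 10.9% to 12.3% and a median of 2551 to 3406 genes. The first kind are called high-mitochondrial and the second low-mitochondrial plates here. Since T3 has 2 high-mitochondrial plates and T6 has 1, each result was also computed with this split as a covariate and within each kind of plate. All 384 well barcodes recur in every plate, as the sorting format requires, and no cell was identical to another. *Scx* was found in all 6 plates at 476 to 767 UMIs per 1000000 UMIs of the plate (CPM). Of 10 endothelial markers only *Kdr* and *Egfl7* had enough UMIs to be tested, and of 7 chondrocyte markers only *Sox9* and *Col2a1*.

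Of the 13372 genes with enough UMIs to be tested, 349 rose from T3 to T6 (2.61%) and 218 fell (1.63%), which makes 4.24% called in either direction by the quasi-likelihood test of edgeR at a Benjamini-Hochberg adjusted p under 0.05. With the split as a covariate, 899 rose (6.72%) and 584 fell (4.37%), and all 567 genes called without the covariate were among them. The count is sensitive to single plates, from 291 genes without plate 1 of T6 to 890 without plate 2 of T6. Of the 567 called genes, 566 had a value in both kinds of plate, and all 566 changed in the same direction within the high-mitochondrial and within the low-mitochondrial plates. The same plates chose these genes, and only 45 of the 567 had overlapping T3 and T6 plates. This agreement therefore largely follows from the choice of genes and is no independent check. Over all tested genes, the 3 T6 plates lay above the 3 T3 plates for 8.26% and below them for 11.6%. Because RNA is summed over a plate, more cells expressing a gene and more RNA per cell cannot be told apart by these values.

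**Figure D1:**
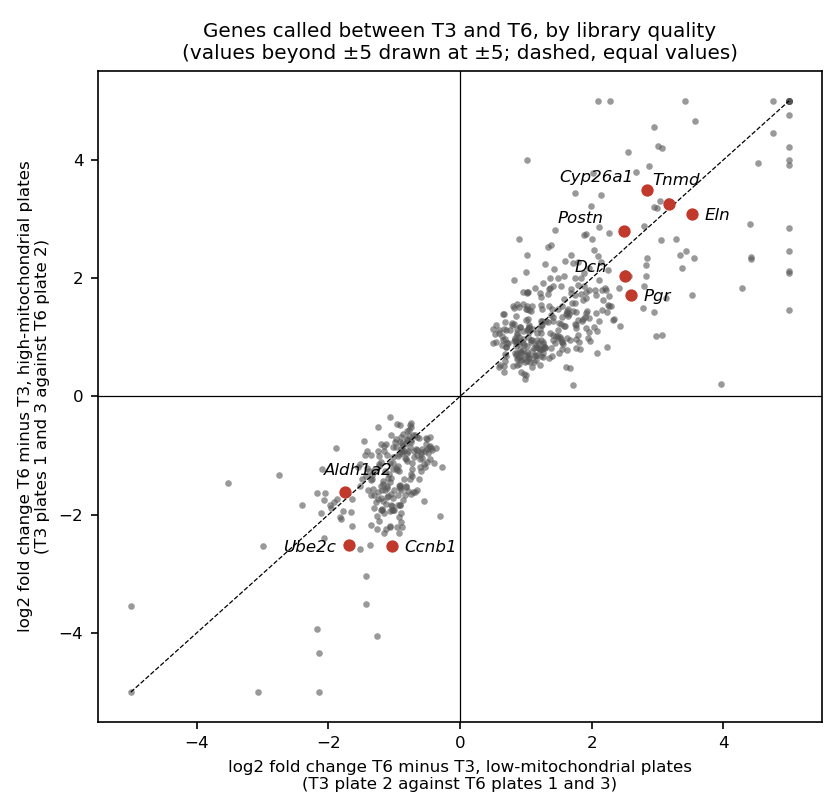
Log2 fold change from T3 to T6 of each called gene in the low-mitochondrial plates (x axis) and in the high-mitochondrial plates (y axis), with values beyond 5 drawn at the edge and the dashed line marking equal values. All 566 points lie in the upper right or lower left part, so none of them changed in opposite directions in the 2 kinds of plate. The same plates chose these genes, so the agreement is largely built in.

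Mature tendon genes rose together while the transcription factors of the tendon lineage mostly did not pass the test. Of 17 tested genes of a mature tenocyte list, 10 rose and none fell, against 2.61% and 1.63% of all genes. The median log2 fold change was 1.49, against 0.03 over all genes. *Tnmd* (ENSMUSG00000031250, chromosome X, 133850980 to 133865577, GRCm38) stood at 10.4, 7.74 and 7.67 CPM in plates 1, 2 and 3 of T3 and at 94.4, 76.7 and 35.0 CPM in those of T6. Every T6 plate was above every T3 plate, with plate 3 of T6 the lowest of its group. Its log2 fold change was 3.05 (standard error, SE, 0.49, adjusted p = 0.00462), and it was 3.17 in the low-mitochondrial and 3.26 in the high-mitochondrial plates.

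*Thbs4* (thrombospondin 4, an extracellular protein of tendon matrix, ENSMUSG00000021702, chromosome 13, 92751590 to 92794818) went from 4.68, 12.2 and 12.2 CPM to 107, 59.5 and 48.8 CPM. The lowest T6 plate was well above the highest T3 plate, and the log2 fold change was 2.87 (SE 0.36, adjusted p = 0.000684). *Chodl*, a membrane lectin, rose from 28.5 ± 2.01 to 104 ± 23.6 CPM (SD, n = 3 plates each), and *Htra3*, a serine protease, from 8.34 ± 5.51 to 31.5 ± 8.35. The proteoglycan genes of the list, *Fmod*, *Kera*, *Dcn* and *Lum*, are described with their family below. Of the 10 genes that rose, 7 stayed past the threshold whichever plate was left out. *Col1a2* did not without plate 1 of T3 or plate 1 of T6 (adjusted p = 0.0571 and 0.0515), *Fibin* without plate 2 or 3 of T3 (0.0565 and 0.0687), and *Kera* without plates 2 or 3 of T3 or plate 1 of T6 (0.063, 0.088 and 0.0768).

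Of 16 transcription factors of the tendon lineage, 2 rose and none fell, against 2.61% and 1.63% of all genes. Both belong to the EGR zinc finger family, whose members activate collagen genes. With the split as a covariate, 3 of the 16 rose and none fell, against 6.72% and 4.37% of all genes. All T6 plates lay above all T3 plates for 3 of the 16 and below them for 3, against 8.26% and 11.6% of all genes. *Egr1* stood at 668, 710 and 810 CPM at T3 and at 1729, 1240 and 1419 CPM at T6. The groups did not overlap, and the log2 fold change was 1.00 (SE 0.19, adjusted p = 0.00895). *Egr2* (ENSMUSG00000037868) rose from 17.7, 25.8 and 26.5 CPM to 89.3, 68.4 and 89.2 CPM, which is a log2 fold change of 1.83 (SE 0.23, adjusted p = 0.000855). *Scx* itself stood at 712, 725 and 767 CPM at T3 and at 622, 594 and 476 CPM at T6. The T6 plates were all lower, yet the difference did not pass the test (log2 fold change -0.35, SE 0.27, adjusted p = 0.521), nor with the split as a covariate (adjusted p = 0.531). *Mkx* (Mohawk), a homeobox factor of the tendon lineage, had overlapping plates, 14.7 to 19.2 CPM at T3 and 13.1 to 22.9 at T6 (log2 fold change 0.08, SE 0.34, adjusted p = 0.938). *Sox9*, shared by cartilage and early tendon progenitors, was at 121 ± 10.9 and 158 ± 35.8 CPM (SD, n = 3) and was not called either (adjusted p = 0.337).

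**Figure D2:**
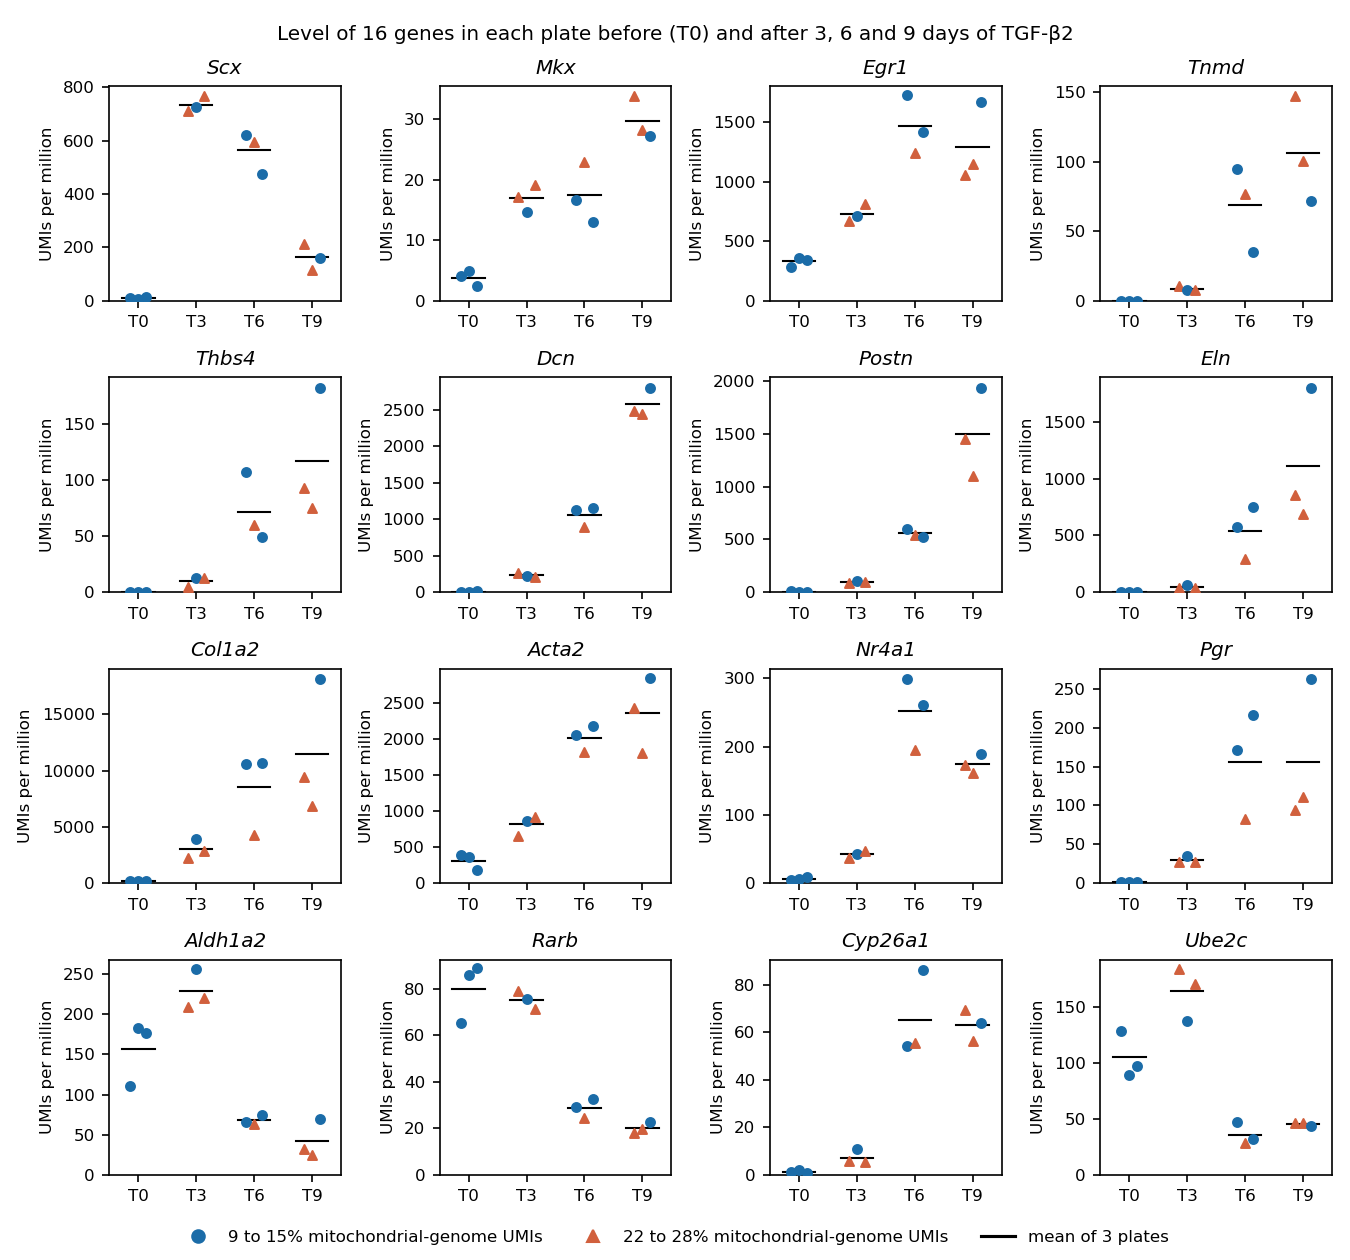
Level of 16 genes in CPM (y axis, from 0) in each plate of T0, T3, T6 and T9 (x axis), with circles for low-mitochondrial plates, triangles for high-mitochondrial plates and a bar for the mean of 3 plates. Between T3 and T6, *Tnmd*, *Thbs4*, *Dcn*, *Postn*, *Eln*, *Nr4a1* and *Cyp26a1* rose with no overlap of plates, *Aldh1a2*, *Rarb* and *Ube2c* fell with no overlap, and *Mkx* overlapped.

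The shares of cells with a UMI were compared after each cell was thinned to 3000 UMIs, which left out 113 of the T3 cells and 68 of the T6 cells. *Tnmd* UMIs were found in 2.17%, 2.2% and 1.7% of the cells of the T3 plates and in 11.2%, 9.07% and 3.90% of those of T6. The mean rose by 6.04 percentage points with no overlap (exact two-sided permutation test, p = 0.1, the smallest that 3 plates against 3 allow). No *Tnmd* UMI was found at the same depth in 21 T6 cells that carried markers of other cell types and are described further on. Those 21 cells had a median of 19685 UMIs before thinning, against 8995 in the other T6 cells. *Scx* UMIs were found in 65.8%, 71.3% and 75.4% of T3 cells and in 63.7%, 60.3% and 59.6% of T6 cells, a difference of -9.66 points (exact permutation test, p = 0.1). In the marker-positive cells, 3 of 21 held a *Scx* UMI. With all UMIs and unequal depth, the *Scx* shares were 81.1% and 79.1%. *Mkx* was found in 4.89% and 5.17% of the cells (exact permutation test, p = 0.7).

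**Figure D3:**
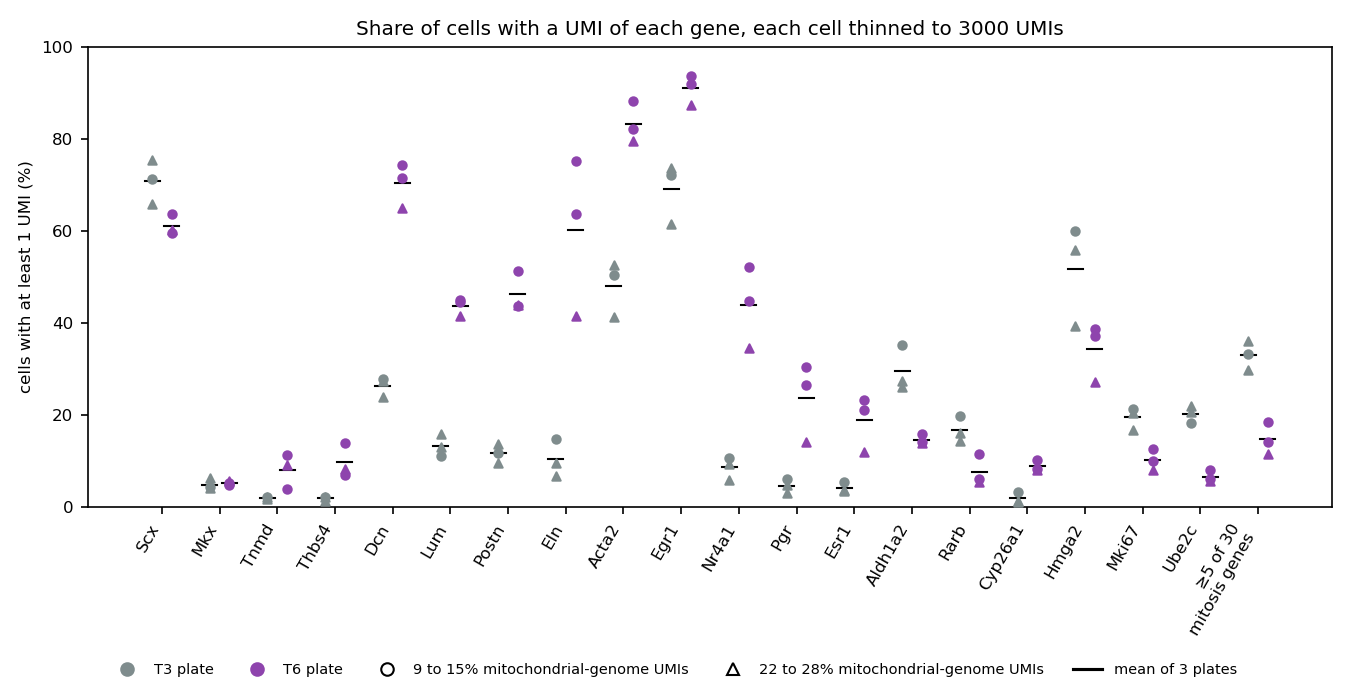
Percentage of cells (y axis) with at least 1 UMI of each gene (x axis) after thinning every cell to 3000 UMIs, for the 3 T3 plates in grey and the 3 T6 plates in purple, with a bar for the mean. *Dcn* went from 26.4% to 70.3% and *Eln* from 10.4% to 60.2% of cells, while *Scx* went from 70.8% to 61.2%.

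Collagens were among the genes that rose. Of 9 fibrillar collagen genes tested, 4 rose and none fell, against 2.61% and 1.63% of all genes. *Col1a2* (a chain of type I collagen, the main protein of tendon) stood at 2265, 3902 and 2910 CPM at T3 and at 10571, 4324 and 10701 CPM at T6. The high-mitochondrial plate 2 of T6 lay just above the highest T3 plate, and the log2 fold change of 1.49 (SE 0.29, adjusted p = 0.0102) was 1.57 within the low-mitochondrial and 0.89 within the high-mitochondrial plates. *Col1a1*, its partner chain, stood at 2028, 5758 and 3503 CPM and then at 11625, 4500 and 11174 CPM. Its groups overlapped and it was not called (log2 fold change 1.30, SE 0.38, adjusted p = 0.0722), but it was with the split as a covariate (0.97, adjusted p = 0.00199). The chains of type V collagen, which starts new fibrils, both rose. *Col5a2* went from 15.1 ± 3.30 to 70.3 ± 11.9 CPM (SD, n = 3, log2 fold change 2.24, adjusted p = 0.000323), and *Col5a1* from 289 ± 146 to 888 ± 377 (1.64, adjusted p = 0.0139). *Col3a1* rose least of the 4, by 0.91 (adjusted p = 0.0367). The calls of *Col5a1* and *Col3a1* were lost without any 1 of plates 1 or 3 of T3 or plates 1 or 3 of T6 (adjusted p from 0.0598 to 0.142), and that of *Col3a1* also without plate 2 of T3 (0.106).

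Of 15 other collagens of connective tissue, 7 rose and none fell (median 1.45), against 2.61% and 1.63% of all genes. The 3 chains of type VI collagen, which forms beaded filaments around cells, moved alike. *Col6a1* went from 147, 281 and 189 CPM to 1129, 594 and 1117 CPM, *Col6a2* from 174 ± 77.9 to 751 ± 210 CPM and *Col6a3* from 106 ± 15.4 to 342 ± 110 CPM (SD, n = 3). Their log2 fold changes were 2.22, 2.14 and 1.67, and each stayed past the threshold whichever plate was left out. *Col8a2* also rose by 1.45 (adjusted p = 0.00206). *Col15a1* had 1 UMI in 7505207 at T3 and 46 in 11254089 at T6, a ratio of 30.7 with a 95% counting interval of 5.24 to 1238. Its call was lost without plate 1 or 2 of T3 or plate 1 of T6 (adjusted p from 0.0551 to 0.058). *Col8a1* and *Col16a1* were called too, but each lost the call in 4 of the 6 fits without a plate (adjusted p from 0.0655 to 0.134).

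The small leucine-rich proteoglycans, which bind collagen and set fibril diameter, rose in 7 of 9 tested members, against 2.61% of all genes. All 9 had every T6 plate above every T3 plate (background 8.26%). *Dcn* (decorin, ENSMUSG00000019929, chromosome 10, 97479609 to 97518143) stood at 263, 219 and 213 CPM and then at 1124, 889 and 1156 CPM, a log2 fold change of 2.18 (SE 0.25, adjusted p = 0.000431). *Lum* (lumican) went from 120, 74.1 and 89.2 to 313, 331 and 322 CPM, and *Aspn* (asporin) from 50.5, 45.0 and 40.4 to 144, 164 and 151 CPM. In these 3 genes the T6 plates were tightly grouped, whatever their quality. *Bgn* (biglycan) rose by 1.41, *Fmod* (fibromodulin) by 1.41 and *Kera* (keratocan) by 2.15 on the log2 scale. *Chad* (chondroadherin, a cartilage and tendon protein) went from 0, 0.368 and 1.05 CPM to 13.3, 13 and 6.66 CPM (log2 fold change 4.35, adjusted p = 0.00304). The 2 members not called were *Prelp* (1.5, adjusted p = 0.329) and *Ogn* (0.93, adjusted p = 0.107). At 3000 UMIs per cell, *Dcn* UMIs were found in 23.9% to 27.8% of T3 cells and 65.1% to 74.4% of T6 cells (exact permutation test, p = 0.1), against 9 of the 21 marker-positive T6 cells.

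Matrix-associated signaling proteins (matricellular genes) rose in 9 of 17 tested members and none fell, against 2.61% and 1.63% of all genes. *Postn* (periostin, ENSMUSG00000027750, chromosome 3, 54361109 to 54391037) stood at 81.2, 108 and 92.7 CPM at T3 and 601, 546 and 525 CPM at T6. All T6 plates were far above all T3 plates, and the log2 fold change was 2.60 (SE 0.22, adjusted p = 6.18e-05). The thrombospondins *Thbs1* and *Thbs2* rose by 1.46 and 1.67, and *Cilp*, a cartilage and tendon matrix protein, by 1.84. *Mgp* (matrix Gla protein, an inhibitor of calcification) rose by 1.44 from 1222 ± 152 CPM to 3278 ± 227 (SD, n = 3). *Sparc* rose by 1.25 and *Ccn2* by 0.86. *Ccn3* had 0 UMIs at T3, where no fall could be seen, and 44 at T6. This was at least 9.78-fold higher against the floor of 3 UMIs over the T3 plates. The calls of *Mgp* (without plate 2 or 3 of T3, adjusted p = 0.0565 and 0.0562), *Sparc* (without plate 1 of T3 or of T6, 0.0545 and 0.0551) and *Ccn2* (without plate 1 of T6, 0.0619) each depended on a plate.

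*Eln* (elastin, ENSMUSG00000029675, chromosome 5, 134702593 to 134747323) rose from 39.0, 62.6 and 38 CPM to 574, 296 and 752 CPM. Even the lowest T6 plate was far above all T3 plates, and the log2 fold change was 3.53 (SE 0.33, adjusted p = 0.000104). Few other genes of elastic fibres were called. Of 18 tested, *Eln* and *Mfap5* (a microfibril protein, 2.71, adjusted p = 0.00979) rose and *Efemp1* (fibulin 3) fell by 1.67 on the log2 scale (adjusted p = 0.00596). Over all genes, 2.61% rose and 1.63% fell. With the split as a covariate, 4 of the 18 rose and 2 fell, against 6.72% and 4.37% of all genes. The list median was 0.45, against 0.03 over all genes, with 14 members higher and 4 lower. *Mfap5* lost the call without plate 3 of T3 (adjusted p = 0.0559). Of 22 genes that modify or cross-link collagen, 2 lysyl oxidases rose, *Loxl1* (1.26, adjusted p = 0.000943) and *Loxl2* (1.45, adjusted p = 0.00793), and none fell. With the split as a covariate, 5 of the 22 rose and none fell, against 6.72% and 4.37% of all genes. The list median was 0.43, against 0.03 over all genes, with 18 members higher and 4 lower. *Loxl2* had overlapping plates, since plate 2 of T6, at 216 CPM, lay below plate 2 of T3, at 242 CPM.

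**Figure D4:**
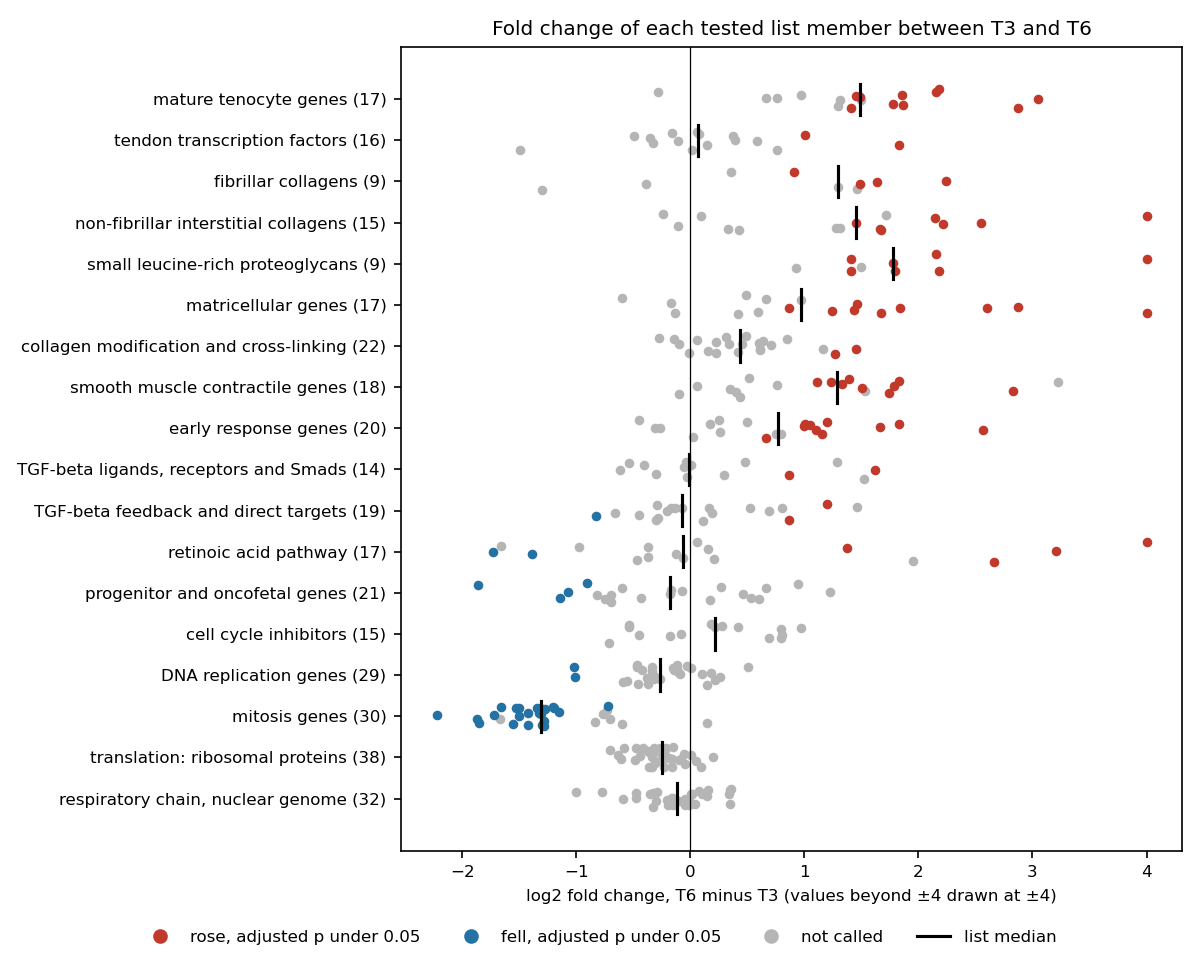
Log2 fold change from T3 to T6 (x axis) of every tested member of 18 gene lists (rows, with the number tested), red for genes that rose, blue for genes that fell, grey for genes not called and a black bar for the list median. The medians of the 5 matrix lists of tenocyte, collagen, proteoglycan and matricellular genes lie between 0.97 and 1.77, that of the mitosis genes at -1.31, and that of the ribosomal protein genes at -0.25 with no gene called.

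Of 14 TGF-β ligands, receptors and Smads, 2 rose and none fell, against 2.61% and 1.63% of all genes, and neither call held in every fit without a plate. *Tgfbr2*, the ligand-binding receptor, rose from 52.1, 51.2 and 47.4 CPM to 97.3, 87.5 and 86.3 CPM. Its plates did not overlap, and the log2 fold change was 0.87 (SE 0.19, adjusted p = 0.0176). *Tgfbr3* (betaglycan, a co-receptor for TGF-β2) rose from 3.46 ± 2.15 to 10.9 ± 2.37 CPM (SD, n = 3, adjusted p = 0.031). *Tgfbr2* lost the call without plates 2 or 3 of T3 or plate 1 of T6 (adjusted p from 0.0613 to 0.0696), and *Tgfbr3* in 5 of the 6 fits without a plate (up to 0.124). The endogenous ligand *Tgfb2* stood at 146, 244 and 156 CPM and then at 147, 55.7 and 156 CPM. The groups overlapped and it was not called (log2 fold change -0.61, SE 0.27, adjusted p = 0.24), whereas with the split as a covariate it was called lower (-0.89, adjusted p = 0.00138). Of 19 feedback and target genes tested, *Ccn2* and *Junb* rose and *Id2*, an inhibitor of basic helix-loop-helix factors, fell by 0.83 (adjusted p = 0.0242). *Id2* and *Junb* each lost the call without any 1 of plates 1 or 3 of T3 or plates 1 or 3 of T6 (adjusted p from 0.0719 to 0.111), and *Ccn2* without plate 1 of T6 (0.0619). The inhibitory Smad *Smad7* stood at 67.6 and 58.7 CPM (log2 fold change -0.17, adjusted p = 0.67).

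Contractile genes rose alongside the matrix genes. Of 18 smooth muscle contractile genes, 9 rose and none fell (median 1.28), against 2.61% and 1.63% of all genes. *Acta2* (smooth muscle actin) stood at 663, 865 and 919 CPM and then at 2058, 1816 and 2185 CPM. The lowest T6 plate was well above the highest T3 plate (log2 fold change 1.33, SE 0.26, adjusted p = 0.0098), though the call was lost without plate 1 of T3 (adjusted p = 0.0523). *Tagln* (transgelin, an actin-binding protein) rose from 93.2, 99.9 and 83.3 to 327, 216 and 239 CPM (1.51, adjusted p = 0.00505). The myosin light chain *Myl9* rose by 1.24 and the myosin light chain kinase *Mylk* by 1.78. These last 3 genes stayed past the threshold whichever plate was left out, and *Cnn1*, *Des*, *Tpm2*, *Actg2* and *Synpo2* did not (adjusted p up to 0.183). *Acta2* UMIs were found in 41.3% to 52.7% of T3 cells and 79.5% to 88.2% of T6 cells at equal depth (exact permutation test, p = 0.1), against 13 of the 21 marker-positive cells. Serum response factor drives many contractile genes through the CArG box, so the promoters of this list were searched for that motif on both strands. It was in the 300-base RefSeq promoter of 2 of 14 members with a promoter in the table, against 1.81% of 27025 genes. The 2 windows are shown with the CArG box in capitals (GRCm38.p6, gene strand, both on the plus strand), *Myl9* at chr2:156775278-156775337 and *Cnn2* at chr10:79988519-79988578.
*Myl9*: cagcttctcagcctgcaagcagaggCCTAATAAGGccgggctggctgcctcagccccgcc
*Cnn2*: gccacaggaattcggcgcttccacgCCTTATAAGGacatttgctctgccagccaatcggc
*Cnn2* itself was not called (log2 fold change 0.44, adjusted p = 0.207). Of the 52 genes with a promoter among the named genes and this list, 36 held an E-box (CANNTG), the motif of basic helix-loop-helix factors such as Scx, against 75% of all genes. The short *Tnmd* promoter window held none. The paper, citing earlier work, states that Scx activates *Tnmd* through E-boxes in the flanking region upstream of the gene. Sequence beyond the window was not searched, so those E-boxes were not tested.

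Immediate early genes, which are transcribed within minutes of a signal, rose in 10 of 20 tested members and none fell. Over all genes, 2.61% rose and 1.63% fell. *Nr4a1* (an orphan nuclear receptor, ENSMUSG00000023034, chromosome 15, 101254269 to 101274795) had the smallest adjusted p of the genes named here. It stood at 37.5, 42.4 and 47.4 CPM and then at 299, 195 and 260.5 CPM (log2 fold change 2.56, SE 0.20, adjusted p = 5.7e-05). *Nr4a1* UMIs were found in 8.66% of T3 cells and 43.9% of T6 cells at equal depth (exact permutation test, p = 0.1). The AP-1 genes *Fos*, *Fosb* and *Fosl2* rose by 1.05, 1.66 and 0.99, and *Zfp36*, which destabilizes short-lived mRNAs, by 1.15. *Jun*, *Jund*, *Myc* and *Dusp1* were not called, at 0.25, 0.18, -0.31 and 0.26. Of the 10 genes, 7 stayed past the threshold whichever plate was left out, and *Ier2*, *Ier3* and *Junb* did not (adjusted p up to 0.127). According to the paper, T3 and T6 cells were released with collagenase and then trypsin before sorting, and T0 cells with trypsin. Whether this handling changed these genes, or *Egr1* and *Egr2*, was not tested.

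Genes of the retinoic acid pathway changed in both directions. Of 17 tested, 4 rose and 2 fell, against 2.61% and 1.63% of all genes. Of the enzymes that make retinoic acid, *Aldh1a2* fell. *Aldh1a1*, counted among the 4 that rose, had 0 UMIs at T3, where no fall could be seen. *Aldh1a2*, which makes retinoic acid in mesoderm, stood at 210, 256 and 220 CPM at T3 and at 65.3, 63.3 and 74.2 CPM at T6. The plates were far apart in both kinds of library, with log2 fold changes of -1.75 and -1.62, and -1.73 over all plates (SE 0.26, adjusted p = 0.0021). *Rarb*, a retinoic acid receptor that is itself a target of the pathway, fell from 79.1, 75.5 and 71.1 CPM to 29.2, 24.2 and 32.4 CPM (-1.39, SE 0.20, adjusted p = 0.00141). *Cyp26a1* (ENSMUSG00000024987, chromosome 19, 37697798 to 37701536), which breaks retinoic acid down and is also a known target, went the other way, from 5.73, 10.7 and 5.23 CPM to 54.3, 55.4 and 86.3 CPM. All T6 plates were far above the highest T3 plate (log2 fold change 3.21, SE 0.30, adjusted p = 0.000104). Of its T6 UMIs, 26.6% lay in 17 cells with parietal endoderm markers, which held 3.38% of all T6 UMIs, and without marker-positive cells its log2 fold change was 2.81.

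The related enzymes *Cyp26b1* and *Aldh1a3* were not called, at -1.66 (adjusted p = 0.0692) and 1.95 (adjusted p = 0.0796), nor was *Rdh10*, which makes retinal, at -0.97 (adjusted p = 0.0754). *Rbp4*, the plasma retinol carrier, rose by 2.67. *Aldh1a1* had 0 UMIs at T3 and 28 at T6, at least 6.22-fold higher against 3 UMIs over the T3 plates, and lost the call in 4 of the 6 fits without a plate (adjusted p up to 0.0621). The receptors *Rara*, *Rarg*, *Rxra* and *Rxrb* stood between -0.13 and 0.20 and were not called.

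*Cyp26a1* and *Rarb*, which moved in opposite directions, both held a direct repeat 5 bases apart in their RefSeq promoters. Letters GTTCANNNNNAGTTCA were searched on both strands, a form of the response element bound by retinoic acid receptors, and were found in 11 of 27025 genes (0.0407%). This search was chosen after the values were seen. The windows are shown because the 2 genes carry the same element, which is in capitals, on GRCm38.p6, *Cyp26a1* at chr19:37697754-37697813 on the plus strand and *Rarb* at chr14:16575491-16575550 on the minus strand.
*Cyp26a1*: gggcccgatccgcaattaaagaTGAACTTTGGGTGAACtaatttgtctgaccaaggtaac
*Rarb*: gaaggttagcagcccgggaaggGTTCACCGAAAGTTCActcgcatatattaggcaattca
The element begins 32 bases before the transcription start in *Cyp26a1* and 52 bases before it in *Rarb*, and in *Cyp26a1* it is read on the opposite strand.

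Genes of mitosis fell, and most genes of DNA replication were not called. Of 30 mitosis genes, 23 fell and none rose, against 1.63% of all genes, with a median log2 fold change of -1.31. Of 29 genes of DNA replication tested, 2 fell (*Cdc45* and *Rrm2*, by 1.02 and 1.01) and none rose, with a median of -0.27. *Rrm2* lost the call in 4 of the 6 fits without a plate (adjusted p up to 0.102). *Ube2c*, the ubiquitin-conjugating enzyme that lets cells leave mitosis, fell most (ENSMUSG00000001403, chromosome 2, 164769898 to 164778822). It stood at 184, 138 and 170 CPM and then at 47.1, 28 and 32.1 CPM. The groups were far apart (log2 fold change -2.23, SE 0.25, adjusted p = 0.000351). *Cenpa*, the histone of centromeres, fell from 307, 235 and 251 CPM to 117, 67.1 and 72.3 CPM (-1.66), and *Ccnb2*, a mitotic cyclin, from 184, 150 and 151 to 70.1, 49.6 and 46.1 CPM (-1.55). *Plk1*, a mitotic kinase, fell from 82.8, 128 and 104 to 53.7, 18.5 and 58.3 CPM (-1.29). *Cdk1*, the kinase that mitotic cyclins activate, fell by 0.72.

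In the 30 genes, 28 had all T6 plates below all T3 plates (background 11.6%). The fall was present in both kinds of plate, with a median of -1.04 in the low-mitochondrial and -1.71 in the high-mitochondrial plates. Of the 23 genes, 17 stayed past the threshold whichever plate was left out. *Ccnb1*, *Cenpe* and *Kif11* lost the call without plate 1 of T3 (adjusted p = 0.0504, 0.0511 and 0.0624), and *Cdk1*, *Cenpf* and *Cks2* in 4 of the 6 fits (adjusted p up to 0.139). The 7 members not called were *Mki67*, *Top2a*, *Bub3*, *Kif20a*, *Prc1*, *Pttg1* and *Nek2*. *Pttg1* (securin) had the only positive value, 0.15 (adjusted p = 0.801). At 3000 UMIs per cell, UMIs of at least 5 of the 30 genes were found in 36.0%, 33.3% and 29.7% of T3 cells and in 18.4%, 11.5% and 14.2% of T6 cells, a difference of -18.3 points (exact permutation test, p = 0.1). With all UMIs the shares were 43.3% and 36.6%, in cells that were deeper at T6. No gene of 15 cell cycle inhibitors was called by edgeR over the 12 plates. *Cdkn1a* (p21) stood at 0.80 (adjusted p = 0.118) and *Btg2* at 0.79 (adjusted p = 0.0688). With the split as a covariate 5 of the 15 rose and 1 fell, against 6.72% and 4.37% of all genes.

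Mitotic genes are repressed in resting cells through the cell cycle homology region, a short promoter element. Its letters, TTTGAA, were searched on both strands of the 300-base RefSeq promoters, a search chosen after the values were seen. They were found in 18 of 26 mitosis genes with a promoter in the table, in 3 of 24 DNA replication genes, and in 20.2% of 27025 genes. The letters were as common in the mitosis genes that fell (14 of 20) as in those not called (4 of 6). CCAAT boxes (CCAAT, both strands), which often accompany the element and were also searched after the values were seen, were in 22 of the 26 mitosis genes, 15 of the 24 replication genes and 41.1% of all genes. Windows of 5 chosen mitosis genes that fell are shown with the element in capitals. *Ccnb2* and *Cdk1* each held 2 copies, and the copy nearest the start is shown. Nearness to the start is therefore partly set by this choice. They lie on GRCm38.p6 at chr2:164769873-164769932 on the plus strand (*Ube2c*), chr9:70421518-70421577 on the minus strand (*Ccnb2*), chr10:69352895-69352954 on the minus strand (*Cdk1*), chr5:30666875-30666934 on the plus strand (*Cenpa*) and chr7:122159425-122159484 on the plus strand (*Plk1*).
*Ube2c*: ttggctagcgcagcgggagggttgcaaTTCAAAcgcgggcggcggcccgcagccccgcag
*Ccnb2*: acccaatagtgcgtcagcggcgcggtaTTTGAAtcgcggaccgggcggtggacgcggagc
*Cdk1*: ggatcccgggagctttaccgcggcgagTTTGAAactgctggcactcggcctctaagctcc
*Cenpa*: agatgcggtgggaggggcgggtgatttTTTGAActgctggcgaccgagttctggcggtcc
*Plk1*: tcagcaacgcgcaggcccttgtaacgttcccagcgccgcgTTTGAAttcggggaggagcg
The element began 29 bases before the start in *Ube2c* and 15 before it in *Cdk1*, and at base 5, 17 and 31 of the transcript in *Ccnb2*, *Cenpa* and *Plk1*. In *Ube2c* it is read on the opposite strand.

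Of 21 progenitor and oncofetal genes tested, 4 fell and none rose, against 1.63% and 2.61% of all genes. With the split as a covariate, 6 fell and 3 rose, against 4.37% and 6.72% of all genes. The list median was -0.18, with 8 members higher and 13 lower. Its summed level went up, from a mean of 12108 CPM at T3 to 18088 CPM at T6. *Hmga2*, a chromatin protein of embryonic cells, fell from 366, 486 and 391 CPM to 205, 138 and 216 CPM with no overlap (log2 fold change -1.15, SE 0.20, adjusted p = 0.0052). *Sox11*, *Sox4* and *Lin28b* fell by 1.07, 0.91 and 1.86, and each lost the call in at least 4 of the 6 fits without a plate (adjusted p up to 0.169). Of the other lists, no member of the 38 ribosomal protein genes, the 32 nuclear or the 13 mitochondrial genes of the respiratory chain, or the 26 interferon response genes was called by edgeR over the 12 plates. With the split as a covariate, 6 of the 13 mitochondrial genes rose, 2 of the 32 nuclear respiratory genes rose, 1 interferon gene rose and no ribosomal protein gene was called. In that fit, 6.72% of all genes rose. Among glycolysis and hypoxia genes, *Pfkp* rose by 0.86 and *Vegfa* fell by 0.66, 2 of 26, against 4.24% of all genes called. Both lost the call in 5 of the 6 fits without a plate (adjusted p up to 0.147).

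Some of the largest fold changes came from few cells. *Srgn* (serglycin, a proteoglycan of secretory granules) had the largest log2 fold change under the naming rule, 9.14 (SE 1.34, adjusted p = 0.0018). It stood at 0, 0.368 and 0 CPM and then at 108, 46.1 and 133 CPM, that is 1 UMI at T3 and 1124 at T6. Of the T6 UMIs, 93% lay in 17 of 1149 cells that held UMIs of at least 5 of 9 parietal endoderm markers, *Srgn* among them. Parietal endoderm is an early embryonic tissue that lays down a thick basement membrane. The paper instead described a cluster with *Srgn*, *Tfpi* and basement membrane genes as apparently endothelial. Whether the 17 cells belong to that cluster was not tested. Cells with at least 5 of the 9 markers numbered 0, 1 and 0 in the T3 plates and 7, 1 and 9 in the T6 plates. Markers were counted on all UMIs, so the number depends on depth. Plates 1 and 3 of T6 had medians of 9580 and 10097 UMIs per cell. The median was 7724 in plate 2 of T6 and 4575 to 7039.5 in the T3 plates. The numbers were not compared at equal depth. Of 13 tested genes of the whole parietal endoderm list, 10 rose, against 2.61% of all genes, and 6 did once the marker-positive cells were left out. Among them, *Sox17*, *Gata4* and *Srgn* had 0, 0 and 1 UMIs at T3, where no fall could be seen. The summed level of the list was 1549 to 2998 CPM at T3 and 3198 to 6520 CPM at T6. *Sox17* and *Gata4*, endoderm transcription factors, had 0 UMIs at T3 and 178 and 161 at T6, at least 39.6-fold and 35.8-fold higher against 3 UMIs over the T3 plates, and 93.8% and 88.2% of these UMIs lay in the 17 cells. The basement membrane genes *Lama1*, *Col4a1* and *Lamc1* had 82.8%, 37.4% and 32.3% of their T6 UMIs there, *Dcn* 2.28%, *Acta2* 2.73% and *Tnmd* 0.528%. *Tfpi*, an inhibitor of coagulation, had 56.3% there and was not called (log2 fold change 1.65, adjusted p = 0.0519). Since these markers chose the cells, their concentration in them is a description.

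Cells with at least 4 of 8 pluripotent markers numbered 4, 6 and 4 in the T3 plates and 5, 0 and 0 in the T6 plates. *Sox2* stood at 34.4, 36.5 and 31.4 CPM at T3 and at 26.1, 0.636 and 0 CPM at T6, and it was not called (log2 fold change -1.97, SE 1.15, adjusted p = 0.393). *Tdgf1* and *Utf1* were not called either (adjusted p = 0.398 and 0.694). *Actc1* and *Myh3*, genes of striated muscle, had 0 UMIs in all plates of T3 and in plates 1 and 2 of T6, and stood at 69.7 and 9.75 CPM in plate 3 of T6. The neural list had 1 called gene of 5, against 4.24% of all genes. It was *Stmn2* (a tubulin-binding protein), which fell from 1185, 1061 and 1104 CPM to 431, 462 and 403 CPM (-1.35, adjusted p = 0.00421).

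Of the 20 genes with the largest rises under the naming rule, several were outside these lists. *Angptl4*, a secreted inhibitor of lipoprotein lipase, rose from 5.21, 4.79 and 6.62 to 44.8, 28.6 and 45.2 CPM (2.82, adjusted p = 0.000323). *Ndufa4l2*, a mitochondrial protein induced by hypoxia, rose from 55.1 ± 19.6 to 316 ± 43.4 CPM (SD, n = 3), and *Aebp1*, a collagen-binding protein, from 25.6 ± 13.7 to 136 ± 55.9 CPM. *Gprin3* and *Syt1* (synaptotagmin 1), known from neurons, rose by 3.54 and 2.10, and both were lowest of the T6 plates in high-mitochondrial plate 2, at 15.6 and 31.5 CPM. Among the falls outside the cell cycle, the cytokine *Il33* went from 38.5, 43.1 and 57.8 to 7.42, 14.0 and 9.99 CPM (-2.12, adjusted p = 0.00715), and *Il1rap*, an accessory chain of interleukin receptors, from 84.7 ± 11.1 to 25.2 ± 5.73 CPM (SD, n = 3). *Mpped2*, a metallophosphoesterase, fell by 1.91 (adjusted p = 0.000175). *mt-Tc*, a mitochondrial transfer RNA gene, fell by 2.16, and its call was lost without plate 1 of T3 or plates 1 or 3 of T6 (adjusted p from 0.0548 to 0.0756).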

How the data were processed

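Cells were sorted singly into 384-well plates and libraries were made by CEL-Seq2. The authors trimmed the reads, aligned them to GRCm38 with HISAT2 2.2.1 and assigned and deduplicated them by featureCounts and UMI-tools 1.0.1. They deposited raw UMI counts (whole numbers) for every gene in every well, with no filter on cells and no normalization. The annotation release is not given in the sources used here. Of 29629 genes, 29528 were matched to a symbol, and 3 further entries (0.0642% of UMIs) were left out. Here, wells with at least 200 detected genes were summed per plate (12 plates, 3 per time point) and fitted with edgeR 4.0.16 in R 4.3.3 (filterByExpr, TMM, quasi-likelihood test, Benjamini-Hochberg threshold 0.05). CPM is per 1000000 UMIs of the plate. Standard errors are the log2 fold change divided by the root of F. DESeq2 1.42.0 was the other tool. In simulated T3 and T6 plates, 140 of 200 genes changed 3-fold were recovered (70%), with 7 false calls. The simulated plates had no library split, so the false calls do not cover its imbalance between T3 and T6. Within a time point, plates were further apart than counting error allows (chi-square per gene 4.24 to 47.6), so each counts as 1 sample. Counting intervals (exact, 95%) and floors of 3 UMIs cover counting error only. Doublets were removed by the authors' sort gate and no caller was run. The library split follows the share of reads without a feature in the study's mapping summary. Other tools were Python 3.11.15, numpy 2.4.6, scipy 1.17.1, pandas 2.3.3 and matplotlib 3.10.9. The genes and lists were chosen with earlier results of these data known. Named genes are those the study's text names, the 20 largest changes each way among called genes with non-overlapping plates and a mean of at least 20 CPM, and members of the lists. Promoters are RefSeq's (GRCm38.p6, 250 bases before to 50 after the start). Alternatives were the tool, size factors, the filter, the samples fitted, the library split, the replicate block, a minimum of 1000 genes, the thinning depth, each plate left out and, added later, leaving out marker-positive cells or mitochondrial-genome genes. Of the lists, those with 1 to 4 called members and not described were matrix proteases (3 of 21 tested), chondrogenic genes (1 of 12), Wnt (2 of 18), BMP (2 of 15), FGF and IGF (3 of 24), complement and inflammation (2 of 12), focal adhesion (4 of 21), Hippo targets (1 of 15), large proteoglycans (1 of 15) and endoplasmic reticulum stress (2 of 20). Metallothioneins had none of 17 called, and the adipocyte list none of 3. Of all genes, 4.24% were called. The bulk tendon samples were not used here, and some list members are not reported here.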

Additional observations from a re-analysis of the deposited data

How the results depend on the processing

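The count of called genes, 567 (349 higher and 218 lower at T6), moved by more than 1.5 times under several settings. It was 1010 (671 and 339) without a filter on low counts, 264 (170 and 94) with only the 6 plates in the fit, where fewer samples share the estimate of the spread, 1483 (899 and 584) with the library split as a covariate and 868 (537 and 331) with DESeq2. Leaving out 1 plate at a time gave 291 to 890 genes, 186 to 484 higher and 102 to 406 lower. Called members of the gene lists numbered 126, 208 with the split as a covariate and 87 to 153 without 1 plate. Median fold changes of all genes differed by less than 0.1 between settings. The replicate number as a block gave 404 genes (262 higher, 142 lower), of which 398 were among the 567. Plates with the same number did not deviate together (correlations -0.29, -0.56 and -0.17 for numbers 1, 2 and 3). Each such pair joins a high-mitochondrial and a low-mitochondrial plate, and pairs of like kind had correlations of 0.23 to 0.44. These correlations follow the library split and cannot tell whether the numbers pair the plates. No called gene of the 567 changed direction under the planned settings, whereas *Podxl* did without cells with markers of other types, an alternative added after seeing the data. *Mkx*, which was not called, changed sign without plate 2 of T3 (-0.16) and without plate 2 of T6 (-0.32, with a range of -0.32 to 0.29 without 1 plate), and its difference in the share of cells did without plate 1 of T3 (-0.15 points, with a range of -0.15 to 0.95). The differences in the share of cells kept their sign in every setting for *Scx* (-12.2 to -7.41 points without 1 plate, -1.95 with all UMIs), *Tnmd* (4.46 to 8.13) and the mitosis genes (-20.2 to -16.7). Low levels are limited by depth, since 1 UMI is worth 0.24 to 0.52 CPM in these plates.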

Other observations

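The groups below were put together after the values were seen, so their counts describe the genes and test nothing. Steroid hormone receptor genes were among those that rose. The progesterone receptor gene *Pgr* stood at 27.6, 34.6 and 27.9 CPM at T3 and at 171, 82.4 and 216 CPM at T6, with high-mitochondrial plate 2 of T6 the lowest of its group and still above all T3 plates (log2 fold change 2.36 with SE 0.29 and adjusted p = 0.000587). The estrogen receptor gene *Esr1* rose from 25, 21.7 and 14.3 to 95.0, 56.0 and 96.3 CPM (2.02, adjusted p = 0.00108). Both calls stayed past the threshold whichever plate was left out. At 3000 UMIs per cell, *Pgr* UMIs were found in 4.66% of T3 cells and 23.7% of T6 cells, and *Esr1* in 4.20% and 18.8%. In the 21 marker-positive T6 cells they were found in 5 and 1 cells. The glucocorticoid receptor gene *Nr3c1* was not called (0.74, adjusted p = 0.146).

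Of 31 tested genes of cholesterol and fatty acid synthesis, 8 fell and none rose, against 1.63% and 2.61% of all genes. The 8 were *Acat2*, *Hmgcs1*, *Fdft1*, *Sqle*, *Cyp51*, *Msmo1*, *Scd1* and *Fads1*. With the library split as a covariate 16 fell, against 4.37% of all genes. *Msmo1* went from 162, 135 and 137 to 67.8, 62.0 and 50.7 CPM (-1.25, adjusted p = 0.00636), and *Sqle*, which makes squalene epoxide, from 86.4, 78.5 and 83.6 to 53.2, 36.9 and 41.9 CPM (-0.92, adjusted p = 0.00859). The calls of *Acat2*, *Sqle* and *Msmo1* stayed past the threshold whichever plate was left out, and those of the other 5 did not (adjusted p up to 0.162). Of 7 tested genes of caveolae, the small pits of the cell membrane, 4 rose, against 2.61% of all genes. They were *Cav1*, *Cavin1*, *Cavin3* and *Ehd2*, and *Cavin1* went from 27.1, 45.3 and 30.7 to 131, 92.3 and 136 CPM (1.82, adjusted p = 0.000104). *Ehd2* lost the call without plate 1 of T6 (adjusted p = 0.06). Of 27 early mesoderm and limb patterning factors tested, 10 fell and none rose, against 1.63% and 2.61% of all genes. Only 2 of the 10 calls held whichever plate was left out. *Tcf21* (-1.18, adjusted p = 0.00851) was one of the 2, whereas *Hoxd13* (-1.13, adjusted p = 0.0284) lost the call in 4 of the 6 fits without a plate (adjusted p up to 0.11). Of 16 S100 and annexin genes, 7 rose, against 2.61% of all genes. *S100a6* went from 49.4, 81.4 and 52.6 to 245, 226 and 205 CPM (1.94, adjusted p = 0.00155) and *Anxa1* from 69.7 ± 11 to 172 ± 15.6 CPM (SD, n = 3). The count that rose was 15 of 16 with the split as a covariate, against 6.72% of all genes, and 5 without marker-positive cells. Of the 7 calls, 4 held whichever plate was left out, and *S100a1* (without plate 1 or 2 of T3, adjusted p = 0.0878 and 0.0685), *S100g* (without any plate of T3 or plate 3 of T6, up to 0.231) and *Anxa2* (without any plate but plate 2 of T6, up to 0.106) were lost.

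Levels at the time points before and after show where the change from T3 to T6 stands in the course, with no test drawn between steps that share plates. *Dcn* stood at 5.61, 232, 1056 and 2581 CPM on average at T0, T3, T6 and T9, and *Postn* at 3.99, 94.1, 557 and 1497 CPM. *Nr4a1* stood at 6.90, 42.4, 252 and 174 CPM and *Cyp26a1* at 1.23, 7.21, 65.3 and 63.4 CPM. *Ube2c* stood at 105, 164, 35.7 and 45.4 CPM, and *Il33* at 0.238, 46.5, 10.5 and 4.40 CPM.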
